A study of Arabidopsis thaliana with 18 samples.

Results

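The genes described here are 6 members of the LATERAL ORGAN BOUNDARIES DOMAIN (LBD) family of Arabidopsis thaliana that are known from work on lateral roots, LBD16 (AT2G42430), LBD17 (AT2G42440), LBD18 (AT2G45420), LBD29 (AT3G58190), LBD33 (AT5G06080) and LBD14 (AT2G31310). They were chosen by gene name for their place in lateral root formation, with earlier results of these data known. They make up 6 of the 28278 gene rows of the count table and 6 of the 42 LBD family genes that the annotation names. RNA was sequenced from whole seedlings that were 4 d old and had spent 2 h in liquid medium with 10 µM of the auxin indole-3-acetic acid (IAA) or with its solvent ethanol (mock). The protocol text of the labels writes this dose in mM and the sample titles in µM, and the titles are followed here. The 6 groups of 3 samples were aff1-1 with IAA, aff1-1 with mock, aff1-3 with IAA, aff1-3 with mock, Wt with IAA and Wt with mock. Wt is the Col-0 accession. The aff1-1 line carries a point mutation, made by chemical mutagenesis, in the F-box gene AFF1 (AT3G49150), and aff1-3 is an insertion line in the same gene, which the sample labels call aff1-2. No other allele is named for these samples. The comparisons address how strongly auxin switches on these genes in 2 h, and whether that differs in mutants of AFF1, which the study follows as a regulator of the auxin response factors ARF7 and ARF19.

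The deposited counts summed to between 12610301 and 36102396 per library. AFF1 itself had few counts, between 0 and 3 in aff1-1, 46 and 144 in aff1-3 and 1 and 9 in Wt libraries, so the insertion line had more AFF1 counts than Wt. Levels are given as CPM, counts scaled to library size. A gene was tested if 2 or more samples of any group exceeded 1 CPM, which left 19383 genes and 5 of the 6 LBD genes. The seedlings hold shoot and root together. All 11 root markers had counts in every library, but their summed level was lower in the mutants. Most of that difference lay in PRP3 (AT3G62680), a root hair gene, which had 83.6 ± 12 CPM in aff1-1 and 85.9 ± 10 CPM in aff1-3, against 141 ± 6.4 CPM in Wt with IAA, and 103 ± 16 CPM in aff1-1 and 87.6 ± 12 CPM in aff1-3, against 186 ± 11 CPM in Wt with mock (mean ± SD, n = 3). Of the 10 root markers tested, PRP3 and EXPA7 were called lower in each mutant with IAA and PRP3 in each mutant with mock, against 1.71% and 1.33% of all tested genes called lower with IAA and 1.62% and 2.70% with mock in aff1-1 and aff1-3. The median log2 difference of the 10 from Wt was -0.192 in aff1-1 and 0.0263 in aff1-3 with IAA, and -0.135 in aff1-1 and -0.176 in aff1-3 with mock. The root marker sum with IAA was between 216.6 and 264.3 CPM in aff1-1 and between 243.9 and 275.8 CPM in aff1-3, against 318 to 336.7 CPM in Wt. With mock the sum was between 267.9 and 315.8 CPM in aff1-1 and between 235 and 292 CPM in aff1-3, against 357.8 to 398.9 CPM in Wt. The sum of the 3 shoot markers is nearly all RBCS1A, at 53000 ± 2300 CPM in aff1-1 and 51800 ± 2000 CPM in aff1-3, against 45300 ± 1100 CPM in Wt with IAA (adjusted p = 0.0586 and 0.147 in edgeR's quasi-likelihood test). LHCB2.1 went the other way with IAA, by log2 differences of -0.285 in aff1-1 and -0.413 in aff1-3 (adjusted p = 0.0699 and 0.0131 in the same test). With mock it had 373 ± 41 CPM in aff1-1 and 390 ± 34 CPM in aff1-3, against 529 ± 2.8 CPM in Wt (adjusted p = 0.00305 and 0.00625). RBCS1A differed from Wt by 0.0394 and 0.117 with mock (adjusted p = 0.816 and 0.379). LHCB1.2 was not called between a mutant and Wt in either treatment. Fewer cells of a type and less RNA per cell cannot be told apart in such samples.

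LBD proteins are transcription factors found only in plants. In the root, auxin leads to the removal of Aux/IAA repressor proteins, which frees ARF7 and ARF19 to switch on LBD genes in the cells that will divide to form a lateral root. LBD16 and LBD29 are known as direct targets of these factors. LBD18 acts together with LBD33 in lateral root initiation and with LBD16 in later steps, LBD17 is best known, with LBD16, LBD18 and LBD29, from callus formation, and LBD14 has been linked to the effect of abscisic acid on root branching.

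In the annotation (TAIR10.1) every gene of the set has 1 transcript with 2 exons and no overlapping annotated gene. LBD16 lies at chr2:17663353-17665337 on the plus strand and codes for 245 residues, and LBD17 lies 3363 bases further on at chr2:17668701-17669836 on the minus strand and codes for 244. LBD18 is at chr2:18718348-18720729 (plus, 262 residues), LBD29 at chr3:21548484-21549572 (minus, 218 residues), LBD33 at chr5:1830671-1831467 (minus, 177 residues) and LBD14 at chr2:13352917-13353672 (plus, 188 residues). No exon stretch of 50 bases from any of them occurs a second time in the genome letter for letter, and copies with mismatches were not searched. Because auxin response factors bind the element TGTCTC, the 1000 bases before each start were searched for it on both strands. It was found in all 6 genes, at 9 places, against 39.6% of 27443 promoters of the same length. The variant TGTCGG, in 14.6% of promoters, and the LBD family motif GCGGCG, in 7.31%, were in none of the 6. The element nearest to each start follows, because auxin response factors are the known activators of these genes. It is printed 5′ to 3′ on the strand of the gene, with only that copy of TGTCTC or its reverse complement GAGACA in capitals. The LBD17 line also holds a further copy in lower case. The distances are 674 bases before the start for LBD16 (chr2:17662667-17662696), 651 for LBD17 (chr2:17670470-17670499), 963 for LBD18 (chr2:18717373-18717402), 601 for LBD29 (chr3:21550156-21550185), 14 for LBD33 (chr5:1831464-1831493) and 108 for LBD14 (chr2:13352797-13352826). A match is a description of these letters and not a measured binding site.
LBD16: tccattattgatTGTCTCcttagaatccaa
LBD17: caatgtctccgtTGTCTCtacaatattttt
LBD18: atacgcgtggagGAGACAttgaggaagcac
LBD29: atgttgtagtttGAGACAgaataatgatga
LBD33: accaacgtgattTGTCTCaatctaacaaaa
LBD14: taagccattagaGAGACAaatatgtaaaat

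LBD17 has a pair of copies of TGTCTC, 660 and 651 bases before its start, and LBD33 and LBD14 are the members whose nearest copy falls in the window from 250 bases before to 50 bases after the start, which holds the element in 14.2% of promoters. LBD16 and LBD33 share the most identical stretches of at least 11 bases in this window, 4 of them, with the longest at 13 bases. LBD17 and LBD29 share the longest identical stretch of any pair of the 6 in this window. It is 15 bases long, starts 36 bases before the LBD17 start and 70 bases before the LBD29 start, and occurs in these 2 of 27443 promoters (0.00729%). The stretch was picked because these 2 share it, so the count could not be lower. A second shared stretch of 12 bases starts 14 bases before the LBD29 start, and in LBD17 it lies after the start. The 250 bases before both starts are printed to show this shared sequence in a pair of genes that auxin raised, LBD17 from chr2:17669837-17670086 and LBD29 from chr3:21549573-21549822, both on the minus strand and 5′ to 3′, with the shared stretches in capitals.
LBD17: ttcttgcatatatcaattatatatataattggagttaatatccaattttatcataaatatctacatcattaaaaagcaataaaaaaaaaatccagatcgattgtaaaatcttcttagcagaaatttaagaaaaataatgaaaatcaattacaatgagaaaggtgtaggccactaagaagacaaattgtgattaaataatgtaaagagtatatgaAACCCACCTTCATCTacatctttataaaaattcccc
LBD29: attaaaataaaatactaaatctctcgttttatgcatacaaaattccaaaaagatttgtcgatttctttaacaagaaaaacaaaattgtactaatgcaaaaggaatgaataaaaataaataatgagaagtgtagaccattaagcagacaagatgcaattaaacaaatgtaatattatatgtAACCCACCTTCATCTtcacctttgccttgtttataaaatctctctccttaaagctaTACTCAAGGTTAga

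In Wt, 2 h of IAA raised every LBD gene of the set that could be tested, by between 4.21-fold and 87.9-fold, and LBD29 rose most. LBD29 had 117.7, 122.8 and 123.4 CPM in Wt seedlings with IAA, against 1.045, 1.343 and 1.646 CPM with mock. This is 87.9-fold, a log2 fold change of 6.46 ± 0.219 (standard error) with an adjusted p of 3.8e-15 in edgeR's quasi-likelihood test, and it ranked 4 by size among the 19383 genes. LBD16 had the highest mock level of the set and the smallest fold. Its levels were 40.75, 38.9 and 34.99 CPM with IAA, against 7.939, 8.52 and 10.6 CPM with mock, a log2 fold change of 2.07 ± 0.117 (adjusted p = 2.16e-11). The IAA samples of both genes stood far above the mock samples.

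LBD17, the neighbour of LBD16, had almost the same level in the 3 IAA samples, at 26.09, 26.23 and 26.17 CPM, against 1.212, 1.553 and 1.172 CPM with mock. Its log2 fold change was 4.33 ± 0.161 (adjusted p = 1.76e-14). LBD33, the partner of LBD18, was near the lower limit of measurement without auxin, with 14, 16 and 17 counts. It had 16.2, 15.8 and 13.76 CPM with IAA, against 0.585, 0.6715 and 0.4744 CPM with mock, which is a log2 fold change of 4.74 ± 0.279 (adjusted p = 4.27e-11). LBD18 itself had 15.63, 12.7 and 14.37 CPM with IAA, against 0.7521, 0.7555 and 1.256 CPM with mock, a log2 fold change of 3.89 ± 0.252 (adjusted p = 1.97e-10). LBD33 passed the filter through its IAA groups alone, and LBD18 through its IAA groups and aff1-3 with mock, so a call for LBD33 is partly set by the filter.

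LBD14 was the exception. It had 12, 18 and 24 counts (0.682, 0.5688 and 1.048 CPM) in Wt with IAA, against 10, 11 and 28 counts (0.4178, 0.4617 and 0.7814 CPM) with mock. The groups overlapped and the gene missed the filter. Without the filter its log2 fold change in Wt was 0.41 (adjusted p = 0.675), and over all 18 libraries it had between 5 and 28 counts, so a small change of LBD14 could not be seen at this depth. The 5 tested genes were called higher in Wt, LBD33 in part through the filter, against 4.92% of all tested genes in that direction. Their IAA samples all lay above their mock samples, against 17.6% of all tested genes.

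**Figure D1:**
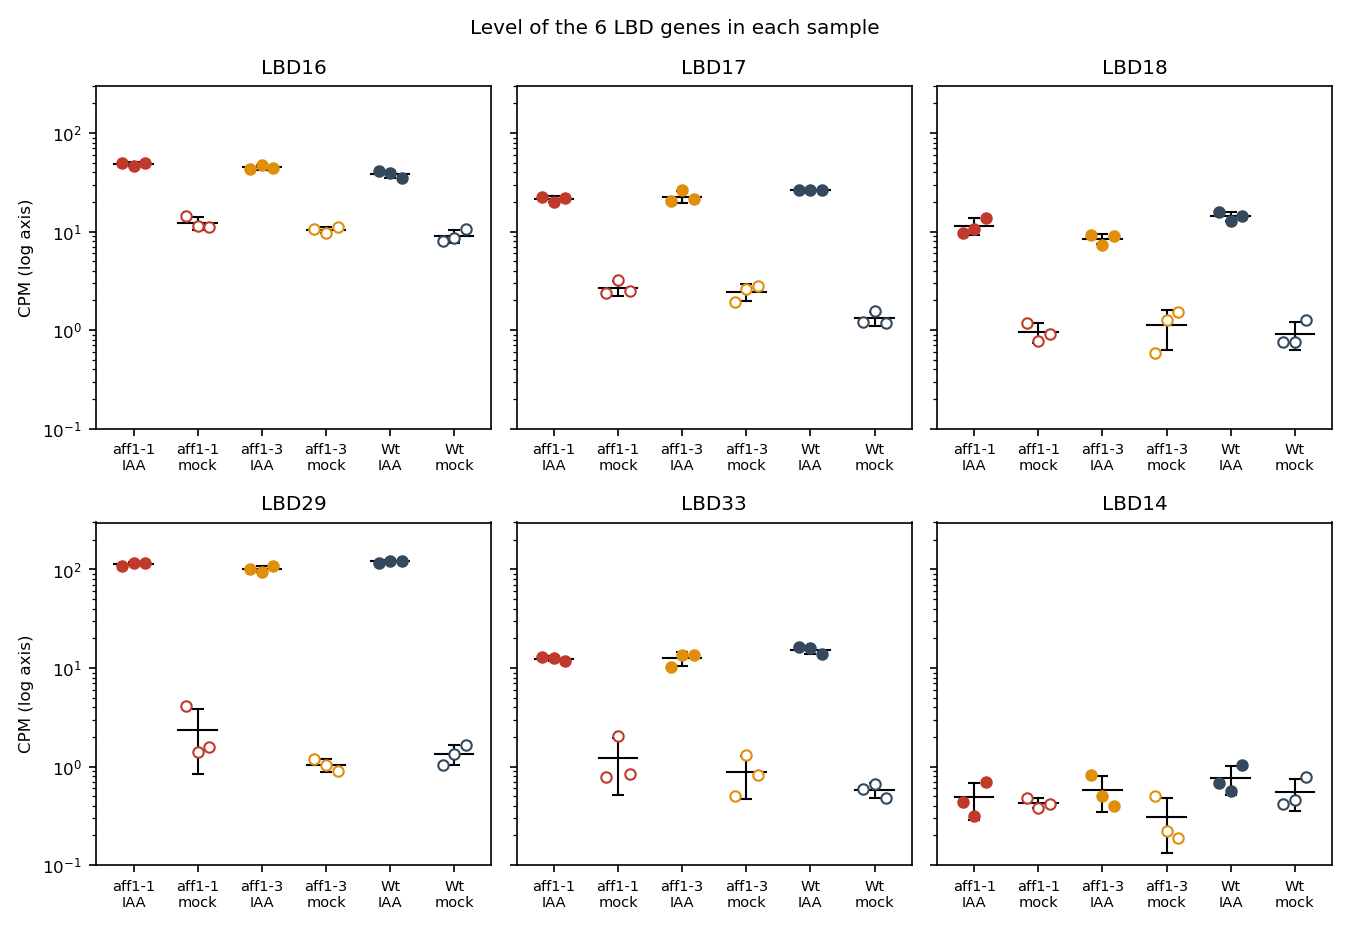
Level of each of the 6 LBD genes in CPM (log axis) in every sample, by genotype and treatment. Points are samples (filled with IAA, open with mock), horizontal lines are means and bars the SD of 3 samples. In each genotype the IAA samples of LBD16, LBD17, LBD18, LBD29 and LBD33 lie above the mock samples, while those of LBD14 overlap.

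Because the genes differ in exon length, their levels were compared with each other as CPM per kilobase of exon. In Wt seedlings with IAA the order was LBD29 (125 ± 3.2, mean ± SD of 3 samples), LBD16 (30.9 ± 2.4), LBD17 (26.0 ± 0.07), LBD33 (21.8 ± 1.9), LBD18 (10.7 ± 1.1) and LBD14 (1.17 ± 0.38). No neighbours in that order had overlapping samples, and the same order held in aff1-1 and in aff1-3 with IAA. With mock, LBD16 stood alone at the top in Wt with 7.29 ± 1.1 CPM per kilobase, 5.28 times the level of LBD29 (1.38 ± 0.31). The other genes followed with LBD17 at 1.3, LBD14 at 0.847, LBD33 at 0.825 and LBD18 at 0.695, and every neighbouring pair of them overlapped.

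The make-up of the set therefore differed between the treatments. LBD29 held 57.9 ± 1.7% of the summed level of the 6 genes in Wt with IAA, against 11.1 ± 0.98% with mock. LBD16 held 14.3 ± 1% with IAA, against 59.0 ± 1.6% with mock. The shares of LBD17 (12.1% with IAA, 10.7% with mock) and LBD18 (4.99% with IAA, 5.55% with mock) lay close together in the treatments. The summed level itself was between 213 and 217 CPM per kilobase in Wt with IAA, against 10.7 to 14.2 with mock. It was between 201 and 210 with IAA, against 15.6 to 21.0 with mock in aff1-1, and between 181 and 196, against 13.7 to 15.2 in aff1-3. LBD16 took a larger share with IAA in the mutants, at 19 ± 0.83% in aff1-1 and 19.3 ± 1.3% in aff1-3, than the 14.3 ± 1% in Wt, and LBD29 stood at 3.01 times the level of LBD16 in aff1-1 and 2.87 times in aff1-3, against 4.04 times in Wt.

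**Figure D2:**
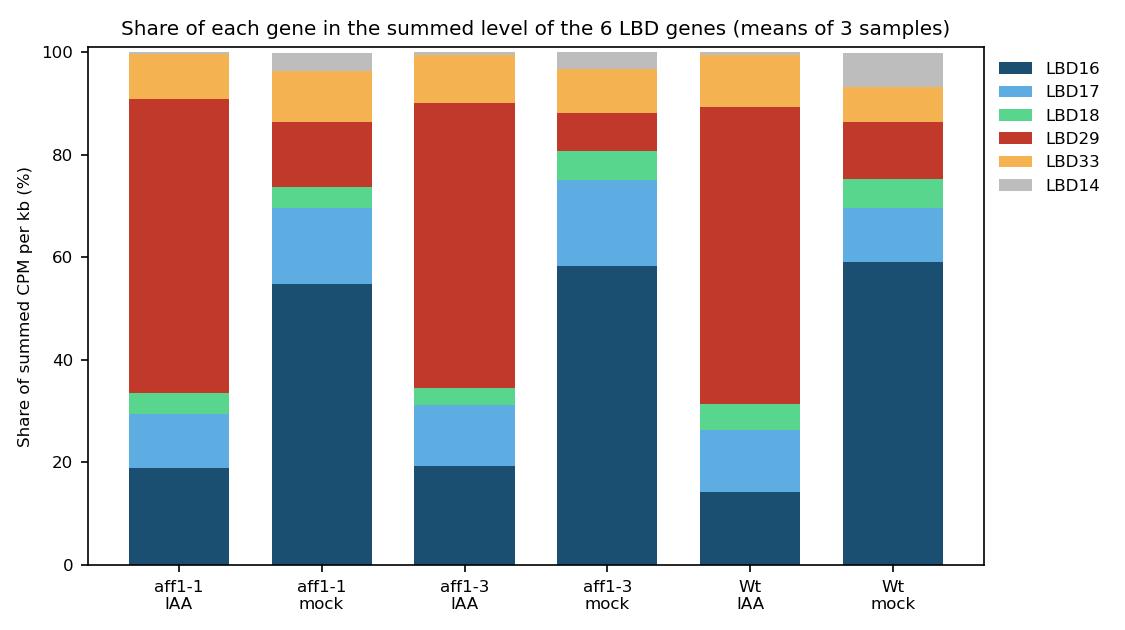
Share of each of the 6 LBD genes in their summed CPM per kilobase of exon (%), by genotype and treatment, as stacked means of 3 samples. LBD29 takes 57.3% in aff1-1, 55.4% in aff1-3 and 57.9% in Wt with IAA, and LBD16 takes 54.8%, 58.3% and 59.0% of the same 3 genotypes with mock.

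Auxin also raised the same 5 genes in both mutants. In aff1-1 their log2 fold changes were 5.56 ± 0.209 for LBD29, 3.55 ± 0.261 for LBD18, 3.43 ± 0.263 for LBD33, 3.03 ± 0.151 for LBD17 and 1.97 ± 0.116 for LBD16, with adjusted p values between 3.53e-14 and 4.92e-09. In aff1-3 they were 6.60 ± 0.229 for LBD29, 3.85 ± 0.269 for LBD33, 3.21 ± 0.15 for LBD17, 2.91 ± 0.255 for LBD18 and 2.1 ± 0.117 for LBD16, with adjusted p values between 8.74e-15 and 3.88e-08. By size of the rise LBD29 ranked 3 of all tested genes in aff1-1 and 1 in aff1-3. All 5 were called higher, LBD33 in part through the filter, against 3.16% of all tested genes in aff1-1 and 2.98% in aff1-3. All 5 also had IAA samples above every mock sample, against 12.8% in aff1-1 and 11.2% in aff1-3. LBD14 overlapped between the treatments in both mutants. None of the 5 calls in any genotype was lost in an alternative fit.

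**Figure D3:**
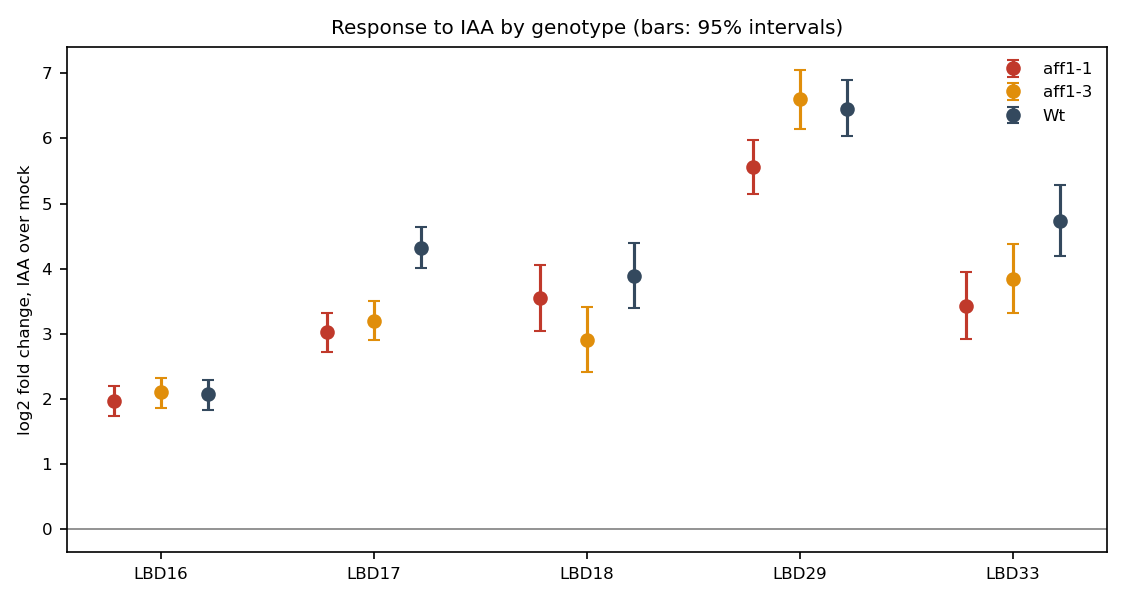
Log2 fold change of IAA over mock for the 5 tested LBD genes in aff1-1, aff1-3 and Wt, with 95% intervals from the edgeR fit. LBD16 has nearly the same value in the 3 genotypes (1.97, 2.1 and 2.07), whereas LBD17 has 3.03 and 3.21 in the mutants and 4.33 in Wt.

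Under mock, with no auxin added, LBD17 was higher in both mutants than in Wt. It had 2.361, 3.194 and 2.481 CPM in aff1-1 and 1.935, 2.595 and 2.829 CPM in aff1-3, against 1.212, 1.553 and 1.172 CPM in Wt. No mutant sample overlapped with Wt. In aff1-1 this was 2.03-fold, a log2 fold change of 1.02 ± 0.189 (adjusted p = 0.00121). In aff1-3 it was 1.88-fold, or 0.91 ± 0.186 (adjusted p = 0.00191). These calls rest on 29 to 76 counts per library. They were lost with limma's sample weights (adjusted p = 0.0129 and 0.0484) and when only the groups compared were fitted (0.0245 and 0.0689). Leaving out Wt mock replicate 3 gave an adjusted p of 0.0118 for aff1-1 and 0.0185 for aff1-3. For aff1-3 the call was also lost without Wt mock replicate 1 (0.011) and without aff1-3 mock replicate 3 (0.0158).

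LBD17 was the 1 gene of the set called under mock in each mutant, against 2.96% of all tested genes called higher in aff1-1 and 4.08% in aff1-3. LBD16 had 14.43, 11.31 and 11.14 CPM in aff1-1 and 10.68, 9.663 and 11.02 CPM in aff1-3, against 7.939, 8.52 and 10.6 CPM in Wt. The aff1-1 samples lay just above Wt, with a log2 fold change of 0.44 ± 0.121 (adjusted p = 0.023), and those of aff1-3 overlapped with Wt (0.21 ± 0.12, adjusted p = 0.306). Leaving out Wt mock replicate 3 made the LBD16 difference in aff1-1 0.581, which passed the threshold (adjusted p = 0.00701).

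LBD29 under mock depended on a single library. It had 4.111, 1.406 and 1.565 CPM in aff1-1 and 1.2, 1.029 and 0.8935 CPM in aff1-3, against 1.045, 1.343 and 1.646 CPM in Wt. The first aff1-1 sample, with 94 counts, stood above all others, and LBD16 was also highest of its group in this library. LBD29 differed from Wt by a log2 fold change of 0.81 ± 0.279 in aff1-1 (adjusted p = 0.0726), which was 0.125 without that sample (adjusted p = 0.844), and of -0.40 ± 0.318 in aff1-3 (adjusted p = 0.474).

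LBD33 had 0.7871, 2.044 and 0.8396 CPM in aff1-1 and 0.5031, 1.297 and 0.819 CPM in aff1-3, against 0.585, 0.6715 and 0.4744 CPM in Wt. The second mock sample was the highest in both mutants, and the aff1-1 samples lay above Wt while those of aff1-3 overlapped. The log2 fold changes of 1.01 ± 0.357 and 0.60 ± 0.364 did not pass (adjusted p = 0.0807 and 0.327), and without mock replicate 2 of each mutant they were 0.522 in aff1-1 and 0.228 in aff1-3. LBD18 differed by 0.03 (95% interval -0.60 to 0.66) in aff1-1 and 0.23 (-0.36 to 0.83) in aff1-3. In all, 3 of the 6 genes had aff1-1 samples above every Wt sample, against 13.8% of all tested genes, and 1 of the 6 had such aff1-3 samples, against 12.1%. The lower PRP3 level and root marker sum of the mutants stand beside these higher LBD17 levels, and their part in the result was not tested.

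**Figure D4:**
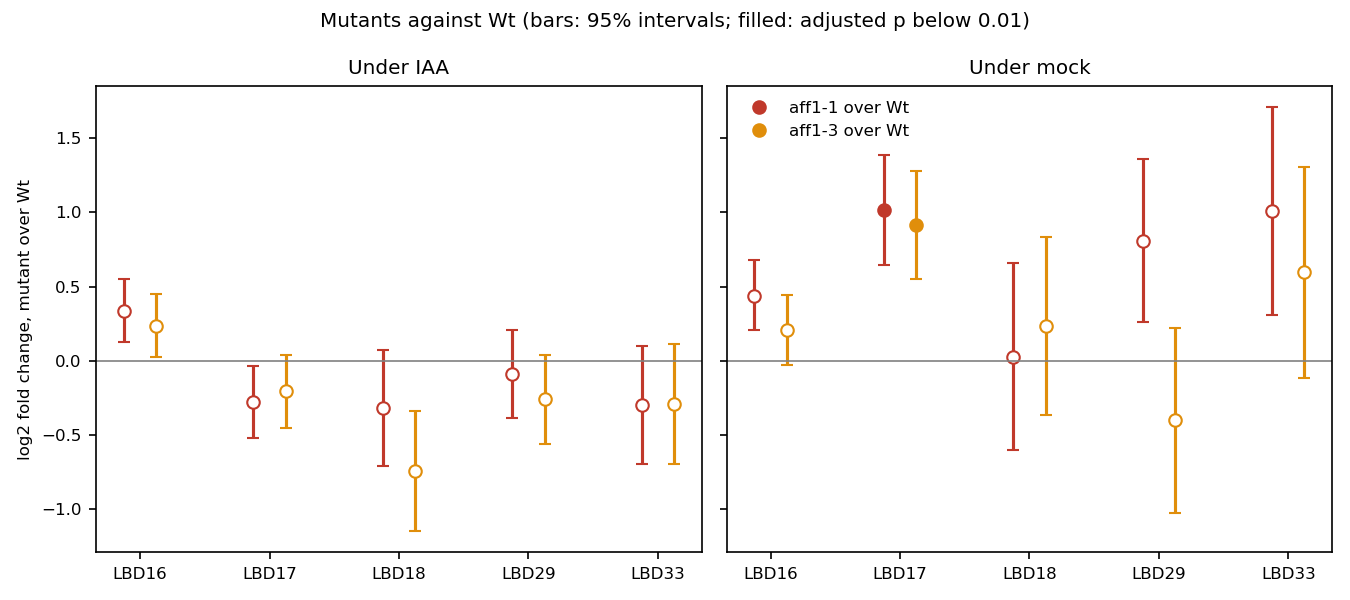
Log2 fold change of aff1-1 and aff1-3 over Wt for the 5 tested LBD genes with IAA (left) and with mock (right), with 95% intervals from the edgeR fit. Filled points have an adjusted p below 0.01. LBD17 is the filled gene, at 1.02 and 0.91 with mock, and with IAA LBD16 is above 0 (0.34 and 0.24) while the other 4 genes are below 0.

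With IAA present, no gene of the set passed the threshold between a mutant and Wt in edgeR's quasi-likelihood test, against 6.17% of all tested genes called in either direction in aff1-1 and 4.72% in aff1-3. In each mutant 2 of the 5 had an unadjusted p below 0.05. DESeq2 called 0 in aff1-1 and 1 in aff1-3, and limma's sample weights called 1 in each. LBD16 was the gene that was higher in the mutants. It had 49.64, 45.74 and 49.27 CPM in aff1-1 and 43.43, 47.7 and 43.77 CPM in aff1-3, against 40.75, 38.9 and 34.99 CPM in Wt, so that all mutant samples lay above Wt. The log2 fold change in aff1-1 was 0.34 ± 0.108 (adjusted p = 0.0399, and 0.00219 with limma's sample weights). For aff1-3 it was 0.24 ± 0.109, with an adjusted p of 0.21.

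LBD18 differed the other way. It had 9.651, 10.61 and 13.86 CPM in aff1-1 and 9.136, 7.277 and 9.006 CPM in aff1-3, against 15.63, 12.7 and 14.37 CPM in Wt. The aff1-3 samples lay below Wt and the aff1-1 samples overlapped with it. Against Wt, LBD18 differed by -0.32 ± 0.2 in aff1-1 (adjusted p = 0.314). The difference in aff1-3 was -0.75 ± 0.207, with an adjusted p of 0.0249. For aff1-3 DESeq2 gave an adjusted p of 0.00467, and limma gave 0.00221.

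LBD17 had 22.63, 19.97 and 21.96 CPM in aff1-1 and 20.44, 26.22 and 21.25 CPM in aff1-3, against 26.09, 26.23 and 26.17 CPM in Wt. The differences were -0.28 ± 0.124 (adjusted p = 0.139) and -0.21 ± 0.125 (adjusted p = 0.37). LBD29 had 109.2, 116.1 and 117.0 CPM in aff1-1 and 100.1, 94.35 and 109.7 CPM in aff1-3, against 117.7, 122.8 and 123.4 CPM in Wt, with differences of -0.09 (95% interval -0.39 to 0.21) and -0.26 (-0.56 to 0.04). LBD33 had 13.05, 12.55 and 11.68 CPM in aff1-1 and 10.22, 13.66 and 13.59 CPM in aff1-3, against 16.2, 15.8 and 13.76 CPM in Wt, with differences of -0.30 ± 0.203 and -0.29 ± 0.206. All 3 genes were thus measured somewhat lower in the mutants, by amounts that did not pass the test.

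Among the 6 genes, 1 had samples above Wt in each mutant with IAA, against 20.0% of all tested genes in aff1-1 and 15.6% in aff1-3. In each mutant 3 had samples below Wt, against 19.3% in aff1-1 and 14.0% in aff1-3. The 3 were LBD17, LBD29 and LBD33 in aff1-1 and LBD18, LBD29 and LBD33 in aff1-3. In absolute terms, LBD16 gained 35.9 ± 1.6 CPM (standard error) after IAA in aff1-1 and 34.5 ± 1.4 CPM in aff1-3, against 29.2 ± 1.9 CPM in Wt, which is 123% and 118% of the Wt gain. The other tested genes had smaller mean gains than in Wt, and no test was run on the gains. The smallest shortfall was that of LBD29 in aff1-1, at 112 ± 2.6 CPM, against 120 ± 1.8 CPM in Wt. LBD18 reached 78.2% of the Wt gain in aff1-1 and 55.3% in aff1-3, LBD17 75.5% and 81.1%, LBD33 76.2% and 78.9%, and LBD29 93.3% and 83.3%. The root marker sum was lower in the mutants with IAA too, through PRP3 and EXPA7 above all, with median marker differences of -0.192 in aff1-1 and 0.0263 in aff1-3, and its part in these differences was not tested.

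The difference between the IAA responses of mutant and Wt was tested directly as an interaction. LBD17 had the clearest one. Its response differed from that of Wt by a log2 value of -1.30 ± 0.226 in aff1-1 (adjusted p = 0.0124). The value for aff1-3 was -1.12 ± 0.224, with an adjusted p of 0.025, so that each allele alone missed the threshold. Both alleles together differed by -1.21 ± 0.196 (adjusted p = 0.00459), which passed. DESeq2 called the difference in each allele (adjusted p = 0.000154 in aff1-1 and 0.00179 in aff1-3). The call for both alleles was lost with limma's sample weights (adjusted p = 0.0194), in thinned libraries (0.0153) and in 6 of the 18 fits that left out 1 sample. Those were the fits without each of the 3 IAA samples of Wt (0.013, 0.0155 and 0.0179), without Wt mock replicate 1 (0.0122) or 3 (0.0205) and without aff1-1 IAA replicate 3 (0.0106). Most of the LBD17 value comes from mock, where the mutants were higher by 1.02 and 0.91, and less from IAA, where they were lower by -0.28 and -0.21.

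LBD33 had interactions of similar size, -1.31 ± 0.411 in aff1-1 and -0.89 ± 0.418 in aff1-3, with wider errors, and neither passed (adjusted p = 0.211 and 0.464). Without mock replicate 2 of each mutant they were -0.817 in aff1-1 and -0.523 in aff1-3. For LBD18 they were -0.34 ± 0.38 and -0.98 ± 0.369 (adjusted p = 0.754 and 0.318). For LBD29 they were -0.90 ± 0.318 and 0.14 ± 0.351 (adjusted p = 0.273 and 0.946), and the aff1-1 value was -0.214 without the first mock sample of that line. LBD16 responded with nearly the same fold in every genotype. Its interactions were -0.10 (95% interval -0.42 to 0.21) in aff1-1 and 0.03 (-0.29 to 0.35) in aff1-3. None of the 5 was called in either allele alone, where 3 of 5 in each allele had an unadjusted p below 0.05, DESeq2 called 1 in each and limma's sample weights 0. The background was 0.0722% of all tested genes in aff1-1 and 0.0877% in aff1-3. For both alleles together 1 of 5 was called, against 0.232%, and with limma's sample weights 0.

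Between the 2 alleles none of the 5 genes was called in edgeR's quasi-likelihood test, with 1 unadjusted p below 0.05 under mock and 0 with IAA, and 0 calls by DESeq2 or limma's sample weights. Over all tested genes 0.139% were called under mock and 0.181% with IAA. The gene with the unadjusted p below 0.05 was LBD29 under mock, which differed by -1.21 ± 0.3 in aff1-3 against aff1-1 (adjusted p = 0.128), and by -0.528 without the first aff1-1 sample.

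Of the other 36 LBD family genes, 16 were tested, and in Wt 2 rose and 2 fell after IAA, against 4.92% of all tested genes called higher and 4.74% called lower. Their median log2 fold change was 0.02, against 0.01 over all tested genes. LBD19 (AT2G45410), which lies 5136 bases from LBD18, was the largest rise. It passed the filter through Wt with IAA alone, so its call there is partly set by the filter. The same holds for its lower level in the mutants than in Wt with IAA. It had 15, 17 and 30 counts in aff1-1, 15, 12 and 6 counts in aff1-3 and 22, 44 and 34 counts in Wt with IAA. With mock it had 0 counts in all 3 aff1-1 samples, 1, 0 and 0 in aff1-3 and 1, 1 and 4 in Wt. LBD19 was thus 19.3-fold higher with IAA in Wt by its summed counts, and at least 17.5-fold higher in aff1-1, where the floor of 3 counts over the group stands for mock. In aff1-3 it was 44.4-fold higher, on 1 mock count. Its level with IAA was 0.814 ± 0.24 CPM in aff1-1 and 0.574 ± 0.09 CPM in aff1-3, against 1.38 ± 0.12 CPM in Wt. These differences did not pass (adjusted p = 0.134 and 0.0381), and the gains were 62.1% and 42.8% of the Wt gain. LBD41 (AT3G02550) rose by 0.90 ± 0.158 in Wt (adjusted p = 0.000247), and with mock it was already at 51.8 ± 1.9 CPM in aff1-1 and 122 ± 23 CPM in aff1-3, against 15.6 ± 2.5 CPM in Wt (adjusted p = 6.82e-07 and 3.87e-10).

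LBD25 (AT3G27650) went against the lateral root genes. In aff1-1 it had 5.86 ± 0.27 CPM with IAA, against 14.4 ± 2.4 CPM with mock (mean ± SD of 3 samples). In aff1-3 it had 6.43 ± 0.86 CPM with IAA, against 13.3 ± 2.1 CPM with mock. The fall was deepest in Wt, with 1.49 ± 0.26 CPM with IAA, against 12.5 ± 1.2 CPM with mock. The log2 fold change was -1.29 in aff1-1, -1.06 in aff1-3 and -3.04 in Wt, and the interaction passed in both alleles, at 1.75 for aff1-1 (adjusted p = 0.00197) and 1.97 for aff1-3 (0.000248). LBD38 (AT3G49940) fell by 0.44 in Wt (adjusted p = 0.000999). In the mutants, 1 of the 16 rose and 1 fell in each, which were LBD19 and LBD25, against 3.16% called higher and 1.71% lower over all tested genes in aff1-1 and 2.98% and 1.97% in aff1-3.

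Auxin also raised several of the genes that act upstream of the LBD set or as its partners. This list and that of the downstream genes were chosen with earlier results of these data known. Of 12 such genes, all tested, 6 rose and 1 fell after IAA in aff1-1, 7 rose and 1 fell in aff1-3, and 7 rose and 1 fell in Wt. Over all tested genes 3.16% were called higher and 1.71% lower in aff1-1, 2.98% and 1.97% in aff1-3, and 4.92% and 4.74% in Wt. Their median log2 fold change was 0.568 in aff1-1, 0.715 in aff1-3 and 0.679 in Wt, against -0.00179, 0.00382 and 0.00507 over all tested genes in the same comparisons. GATA23 (AT5G26930), a transcription factor of lateral root founder cells, had 13.7 ± 1.9 CPM with IAA, against 1.24 ± 0.18 CPM with mock in aff1-1, 15.2 ± 1.1 against 1.14 ± 0.48 CPM in aff1-3, and 16.2 ± 1.2 against 0.563 ± 0.22 CPM in Wt. ARF19 (AT1G19220) had a log2 fold change of 0.74 in aff1-1, which missed the threshold (adjusted p = 0.0109), and rose by 0.92 in aff1-3 (0.00192) and by 1.83 in Wt (1.96e-07), while ARF7 (AT5G20730) had 0.22 in Wt (adjusted p = 0.476).

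Among the repressors, IAA14 (AT4G14550), the Aux/IAA protein that holds ARF7 and ARF19 back in lateral root formation, rose by nearly the same amount everywhere, at 1.31 in aff1-1, 1.35 in aff1-3 and 1.4 in Wt. IAA28 (AT5G25890), another Aux/IAA repressor of lateral roots, was the gene that fell, by 0.73 in aff1-1, 0.73 in aff1-3 and 0.96 in Wt. WOX11 (AT3G03660), which switches on LBD16 and LBD29 during adventitious rooting, had 9.89 ± 1.8 CPM in aff1-1 and 11.3 ± 1.6 CPM in aff1-3, against 4.23 ± 1.1 CPM in Wt with mock (adjusted p = 4.11e-05 and 4.04e-06). The partner of LBD16 in callus, BZIP59 (AT2G31370), was measured at 31.3 ± 1.1 CPM with IAA, against 29.5 ± 1.2 CPM with mock in Wt (adjusted p = 0.54). For both alleles together 1 of the 12 was called with a smaller response than Wt, against 0.114% of all tested genes with a lower value. It was IAA19 (AT3G15540), with an interaction of -0.77 ± 0.137 (adjusted p = 0.00784). In the same edgeR quasi-likelihood test GATA23 (-1.16 ± 0.306, adjusted p = 0.0855), WOX11 (-0.997 ± 0.189, adjusted p = 0.0118) and ARF19 (-1 ± 0.225, adjusted p = 0.0354) had lower values that missed the threshold. ARF7 (-0.354), ARF5 (-0.353), WOX12 (-0.159), BZIP59 (-0.0769) and IAA14 (-0.0711) were below 0 by less and were not called. IAA3 (0.333), IAA28 (0.231) and IAA12 (0.101) had values above 0, and 0 genes of the list were called in that direction.

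Genes that act downstream of the set or later in lateral root formation moved in both directions at 2 h. Of 19 such genes, 18 were tested, and LBD19 is among them. After IAA 6 rose and 1 fell in aff1-1, 7 rose and 1 fell in aff1-3, and 8 rose and 2 fell in Wt, with medians of 0.323 in aff1-1, 0.326 in aff1-3 and 0.441 in Wt, against -0.00179, 0.00382 and 0.00507 over all tested genes. The shares of all tested genes called are those given for the upstream and partner genes, at most 4.92% higher and 4.74% lower. PUCHI (AT5G18560), a transcription factor of lateral root primordia, had 18.1 ± 0.93 CPM with IAA, against 5.36 ± 0.3 CPM with mock in aff1-1, 17.4 ± 1.4 against 4.11 ± 1.0 CPM in aff1-3, and 29.3 ± 0.69 against 3.49 ± 0.53 CPM in Wt. LAX3 (AT1G77690), an auxin importer in the cells over a growing primordium, had 70.9 ± 6.1 CPM with IAA, against 49.9 ± 4.3 CPM with mock in aff1-1, 67.9 ± 2.8 against 47.2 ± 7.7 CPM in aff1-3, and 138 ± 6.5 against 54.2 ± 4.2 CPM in Wt. Both genes rose in every genotype and reached a lower level in the mutants than in Wt.

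The expansin gene EXPA14 (AT5G56320), known as a target that LBD18 activates, fell after IAA, by 2.21 in aff1-1, 1.30 in aff1-3 and 1.53 in Wt. EXPA17 (AT4G01630), another expansin linked to LBD18, had a log2 fold change of 1.65 in aff1-1 (adjusted p = 0.0344) and 0.65 in Wt (adjusted p = 0.195), and rose by 3.19 in aff1-3 (adjusted p = 0.000687). Its mock level was 0.351 ± 0.33 CPM in aff1-1 and 0.104 ± 0.055 CPM in aff1-3, against 2.36 ± 0.48 CPM in Wt (adjusted p = 0.000179 and 4.37e-06). The folds of the mutants thus rest on mock levels near the lower limit of measurement. With IAA EXPA17 was lower in them too, at 1.01 ± 0.21 CPM in aff1-1 and 1.05 ± 0.39 CPM in aff1-3, against 3.68 ± 0.34 CPM in Wt (adjusted p = 0.00111 and 0.00195). Neither interaction passed (adjusted p = 0.495 in aff1-1 and 0.107 in aff1-3). E2FA (AT2G36010), a cell cycle gene known to be activated by LBD18 with LBD33, was measured at 6.49 ± 0.64 CPM with IAA, against 6.07 ± 0.3 CPM with mock in Wt (adjusted p = 0.791). With IAA 5 of the 18 genes were lower than in Wt in each mutant and 0 were higher, with medians of -0.373 in aff1-1 and -0.37 in aff1-3, against -0.00605 and -0.00642 over all tested genes, of which 1.71% were called lower in aff1-1 and 1.33% in aff1-3. The comparisons of the 2 mutants share their Wt samples. For both alleles together 3 of the 18 had a smaller response, PUCHI (-1.13 ± 0.173, adjusted p = 0.00264), LAX3 (-0.83 ± 0.126, adjusted p = 0.00262) and MAKR4 (-1.23 ± 0.156, adjusted p = 0.000292), and 0 had a larger one, against 0.114% of all tested genes with a lower value. Because the list was chosen with earlier results of these data known, this count is a description.

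Over the 18 samples the log2 CPM of the 5 tested genes rose and fell together, with Pearson correlations between 0.96 for LBD16 with LBD18 and 0.99 for LBD17 with LBD33. These points share their 6 groups, and IAA against mock sets most of their spread. Within groups, after each group's mean was taken off, the same correlations ran from -0.514 to 0.757 and are given as a description. Outside the set, the genes most like the mean profile of the 5 were IAA13, IAA19, IAA11, MAKR4 and SDR3, each with a Pearson correlation of 0.996 over 18 samples. For single genes, the most like were AT1G60010 for LBD16 (0.991), MAKR4 for LBD17 (0.992), IAA19 for LBD18 (0.987), AUF1 for LBD29 (0.992) and MAKR6 for LBD33 (0.989).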

How the data were processed

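The authors deposited 1 table of counts, with no normalization, in which each gene has the number of reads that STAR placed once on TAIR10 and featureCounts gave to it alone. Whether strand was used is not given in the sources used here. Single-end reads came from 18 libraries, and treatments were repeated 3 times per line, so p-values measure the spread between these samples. Of 28278 gene rows, 99.0% were matched to TAIR10.1 (RefSeq), which gave names, exons and promoter sequence. The 4 nuclear ribosomal RNA rows were left out. CPM used library sizes scaled by TMM. Testing used the quasi-likelihood method of edgeR 4.0.16 in R 4.3.3 on 6 group means, with Benjamini-Hochberg adjustment over all 19383 tested genes and a threshold of 0.01. Standard errors were the size of a log2 fold change over the root of its F value. The script was tested on simulated data.

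Tried beside it were DESeq2 1.42.0, limma 3.58.1 with sample weights as the study used it, other filters, thresholds and size factors, a replicate block, fits of the compared groups alone, counts thinned to the smallest library, tables without organellar genes, and fits that left out each sample in turn. The named genes are the 6 members, the 3 largest rises and falls of the LBD family after IAA in Wt past the threshold, LBD19, genes of 2 lateral root lists, and the genes with the highest correlation. The members and lists were chosen with earlier results of these data known. Limits from counts cover counting error only.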

Additional observations from a re-analysis of the deposited data

Results flagged for a closer look

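The IAA response of LBD17 differed between the mutants and Wt by a log2 value of -1.21 for both alleles together (edgeR's quasi-likelihood test, adjusted p = 0.00459), which is the result of the set to look at again because the call rests on few mock counts. Around the set, responses differed by the same test for LBD25, by 1.75 in aff1-1, 1.97 in aff1-3 and 1.86 for both alleles, for MAKR4, by -1.14, -1.32 and -1.23, for PUCHI, by -1.29 in aff1-1 and -1.13 for both alleles, for LAX3, by -0.83 for both alleles, and for IAA19, by -0.77 for both alleles. No group had the 4 samples that a test for single outlying samples needs.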

How the results depend on the processing

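The 5 calls of IAA against mock held in each genotype in all 51 alternative counts. Under mock, the count in aff1-1 (1) was 0 in thinned libraries, with only the groups compared and with limma's sample weights, and 2 at a threshold of 0.05. That in aff1-3 (1) was 0 with limma, with only the groups compared and with a log2 fold change of at least 1, and 0 to 1 with 1 sample left out. With IAA, the counts (0) were 1 in both mutants at 0.05, with only the groups compared and with limma, and 1 in aff1-3 with DESeq2. The interaction count in aff1-1 (0) was 1 without a filter, at 0.05, with only the groups compared and with DESeq2. That in aff1-3 (0) was 1 at 0.05 and with DESeq2, and 0 to 1 with 1 sample left out. For both alleles the count (1) was 0 in thinned libraries and with limma, and 0 to 1 with 1 sample left out. Over all genes, DESeq2 called 94 interactions in aff1-1, 117 in aff1-3 and 164 for both alleles, and limma 48, 11 and 80, against 14, 17 and 45. With IAA they called 1818 and 2948 genes between aff1-1 and Wt, against 1196. DESeq2 called 61 genes between the alleles under mock and 107 with IAA, against 27 and 35.

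The replicate number as a block gave 1 interaction call in aff1-1, LBD17 (adjusted p = 0.00955), and changed no other of these counts. Same-numbered samples paired weakly, with 8 of 45 pairs at a correlation over 0.1 and a range from -0.283 to 0.261. The highest were replicate 1 of Wt mock with aff1-1 mock (0.261) and with aff1-3 mock (0.239). By a strict rule, that the own number be the best match in every other group, 0 of 18 samples matched. These values do not settle whether samples of equal number share a batch.

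Values near 0 turned round in 19 of 877 fits, none of them called. In thinned libraries the interaction in aff1-3 was -0.108 for LBD16 and -0.0591 for LBD29. With limma it was 0.0171 for LBD16 in both alleles, and LBD18 under mock was -0.0368 in aff1-1 and -0.047 in aff1-3. With 1 sample left out, the LBD16 interaction ran from -0.244 to 0.0313 in aff1-1, -0.111 to 0.114 in aff1-3 and -0.178 to 0.0473 in both alleles, that of LBD29 in aff1-3 from -0.0623 to 0.283, and LBD18 under mock from -0.151 to 0.36 in aff1-1 and -0.0802 to 0.567 in aff1-3. The causes were not tested. For LBD14, LBD18 and LBD33, low mock counts limit what can be seen.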
